A study of Ovis aries with 16 samples.

Results

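Genes of the NADPH oxidases and of xanthine dehydrogenase, the main enzyme sources of superoxide in lung, were examined in peripheral lung of newborn lambs with and without an aortopulmonary shunt. The members were CYBA, CYBB, NCF1, NCF4, NOX4, RAC1, RAC2 and XDH, a list drawn up with earlier results of these data known, and all probe sets annotated to 1 of these symbols alone were taken. All 8 genes were found, with 12 probe sets, among 9155 named genes and 24016 probe sets on the arrays. The 16 sheep (Ovis aries) were 3 days old, 8 from ewes that had a sham operation and 8 in which a vascular graft of 8.0 mm, with a length of 2 mm, had joined the ascending aorta to the main pulmonary artery before birth. The fetal operation was done 9 ± 6 days before term, birth was spontaneous and all lambs were anaesthetised before lung was taken. The breed, the sex and any drug given before that are not in the labels used here. The shunt lambs stand for congenital heart disease with raised pulmonary blood flow. Each array was taken as 1 lamb, which the labels do not state. If some arrays came from the same animal, the p-values below describe technical spread as well. Sheep RNA was read with bovine probes, and signal above background is unknown for every probe set.

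An NADPH oxidase carries electrons from NADPH across a membrane to oxygen and so makes superoxide. The phagocyte enzyme has a membrane core of CYBB (gp91phox, also called NOX2) and CYBA (p22phox), and it works only when the cytosolic proteins NCF1 (p47phox) and NCF4 (p40phox) and the small GTPase RAC2 join that core. NOX4 is the form of smooth muscle, endothelium and fibroblasts, which also needs CYBA but not the cytosolic proteins, and releases mostly hydrogen peroxide. RAC1 is found in most cell types, blood cells included, so it is not particular to vascular cells. XDH makes uric acid from xanthine and, once converted to its oxidase form, passes electrons to oxygen. In vessels, superoxide is known to consume nitric oxide. The comparison of shunt with control asks which of these genes, those of phagocytes or those of vascular cells, differed in RNA level at this age.

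None of the 12 member probe sets passed the test of shunt against control lung, which does not show that their levels were equal. At an adjusted p under 0.05, 0 of 12 probe sets passed by limma, against 0.0708% of all probe sets, and at an unadjusted p under 0.05 again 0 of 12, against 13.7% of all (6.42% higher and 7.32% lower in shunt). The difference was above 0 in 5 of 12 and below 0 in 7 of 12, against 44.9% and 55.1% of all. By an exact two-sided permutation of the lambs, 0 of 12 had a p under 0.05. By gene, with the brightest probe set for each, 0 of 8 passed, against 0.0874% of all genes, and 0 of 8 had an unadjusted p under 0.05, against 14.5% of all, of which 6.63% were higher and 7.92% lower in shunt. The groups overlapped in all 12 probe sets, and 0.142% of all probe sets showed no overlap. Values below are log2 levels after RMA, differences are shunt minus control ± the limma standard error, and intervals are 95% intervals from limma.

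**Figure D1:**
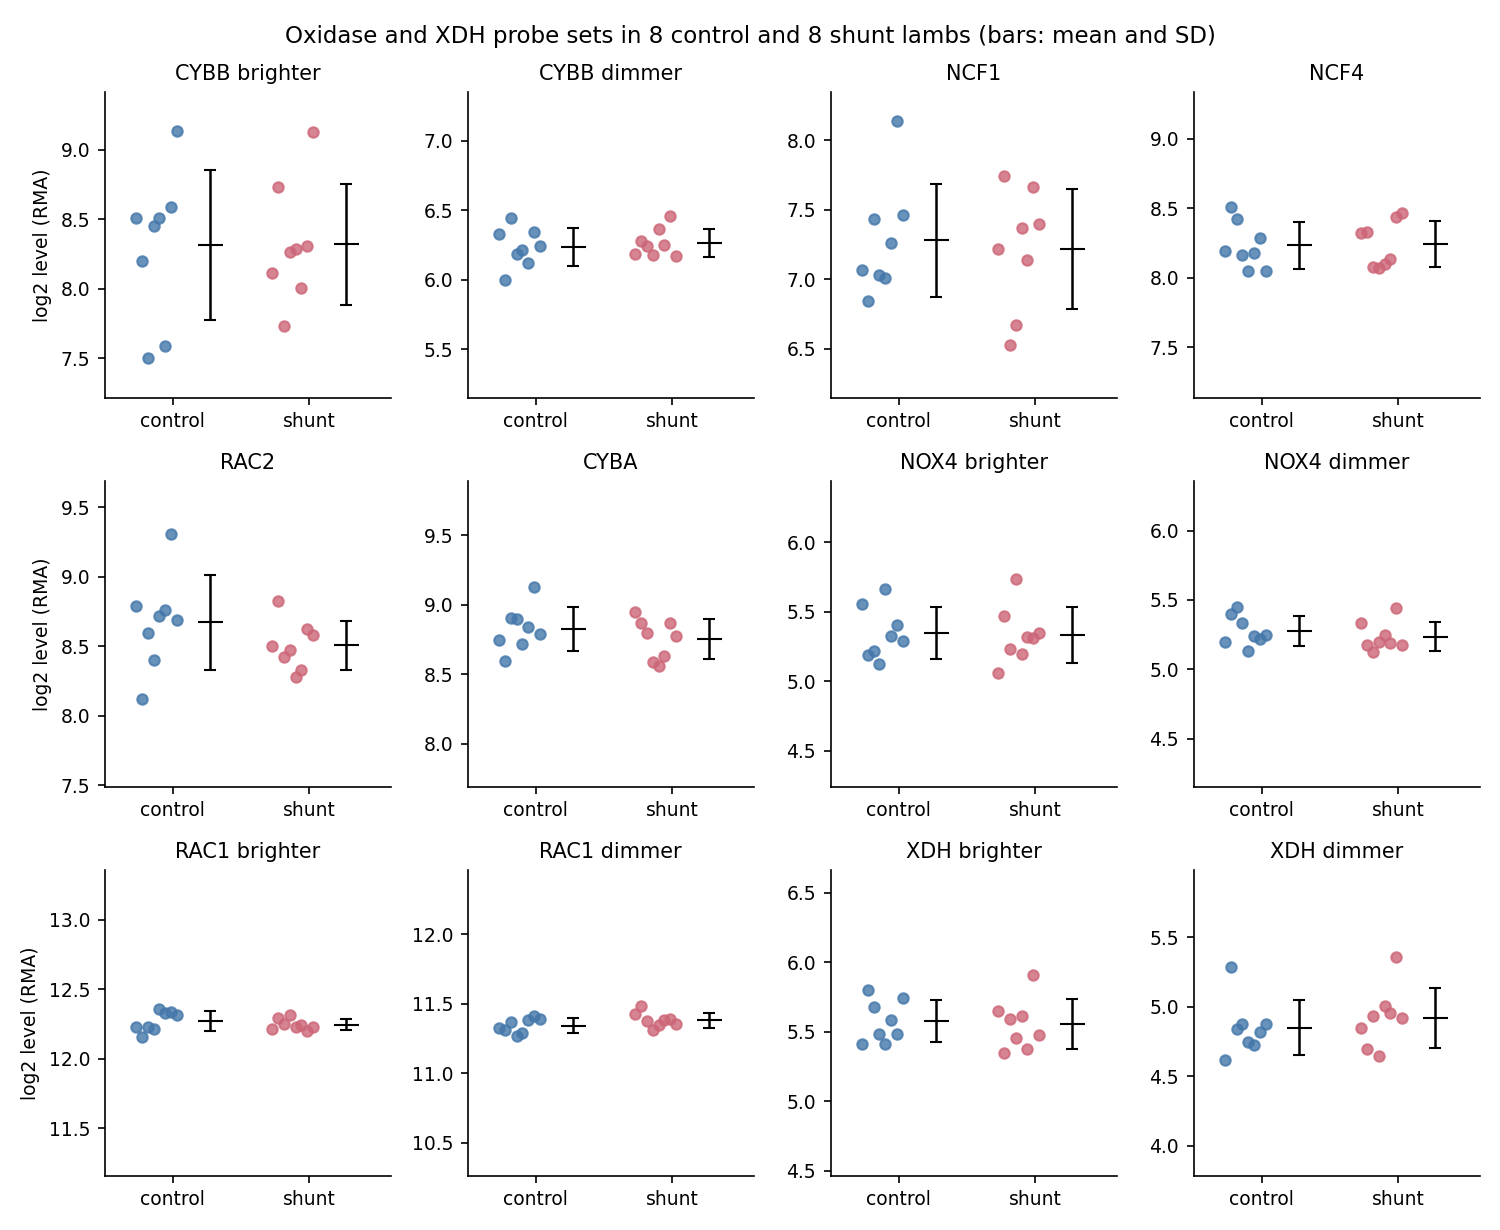
Log2 level after RMA of each member probe set in 8 control (blue) and 8 shunt (red) lambs, 1 point a lamb, with the group mean and SD as black bars. Every panel spans the same height on the log2 scale, and brighter and dimmer name the 2 probe sets of a gene. Lambs lie far apart for CYBB (brighter) and NCF1 and close together for RAC1, and control and shunt points overlap in every panel.

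CYBB, the electron-carrying subunit of the phagocyte oxidase, had 1 bright and 1 dim probe set. With the brighter one, control lambs read from 7.50 to 9.14 with a median of 8.48, and shunt lambs from 7.73 to 9.13 with a median of 8.27. Both groups held low and high lambs: the lowest were control replicates 3 and 6 and shunt replicate 3, and the highest were replicate 8 of each group. The control mean was 8.31 ± 0.54 (SD, n = 8), the shunt mean was 8.32 ± 0.43, and they differed by 0.01 ± 0.22 (adjusted p = 0.990 by limma). The interval ran from -0.44 to 0.46, which is 0.735-fold to 1.38-fold, so a change of moderate size was not detectable with 8 lambs a group. The dimmer CYBB probe set read from 6.00 to 6.45 in control and from 6.17 to 6.46 in shunt, with a difference of 0.03 ± 0.06 (adjusted p = 0.853 by limma) and an interval of -0.10 to 0.16. The brighter probe set ranged 3.11-fold from the lowest to the highest lamb and the dimmer 1.37-fold.

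The cytosolic organizer NCF1, which carries the activating signal to the membrane core, was about as variable as CYBB with its brighter probe set. Control lambs ranged from 6.85 to 8.14 (median 7.16) and shunt lambs from 6.53 to 7.74 (median 7.29). The highest lamb was control replicate 7, the lowest were shunt replicates 3 and 4, and the other lambs of both groups lay between them. The difference was -0.06 ± 0.19 (adjusted p = 0.899 by limma), with an interval of -0.45 to 0.33. It was 0.06 without control replicate 7, and 0.03 and 0.01 without shunt replicate 3 or 4.

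NCF4, the p40phox subunit that binds phosphoinositides of the phagosome, spread less. Its level was 8.05 to 8.51 in control (median 8.19) and 8.07 to 8.47 in shunt (median 8.23). Means were 8.23 ± 0.17 (SD, n = 8) and 8.24 ± 0.17, a difference of 0.01 ± 0.08 (adjusted p = 0.970 by limma). The interval of -0.16 to 0.18 was narrower than that of the brighter CYBB probe set, though not of the dimmer one.

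RAC2, a RAC protein of blood cells, had the largest difference of the members, and it did not pass. Control lambs read from 8.12 to 9.31 (median 8.70) and shunt lambs from 8.28 to 8.83 (median 8.49). In shunt, 7 of 8 lambs lay below the control mean, shunt replicate 2 being the exception, yet all 8 lay inside the control range, whose ends were control replicates 2 and 7. The difference was -0.17 ± 0.12 (adjusted p = 0.543 by limma, exact permutation p = 0.246), or 0.891-fold, with an interval of -0.42 to 0.09. Without control replicate 2, whose array stands apart from the rest, it was -0.25 (adjusted p = 0.397 by limma) and the only member with an unadjusted p under 0.05. Without control replicate 7 it was -0.08 (adjusted p = 0.747).

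CYBA, the membrane partner of both CYBB and NOX4, ranged from 8.60 to 9.13 in control (median 8.82) and from 8.56 to 8.95 in shunt (median 8.79). The shunt replicates 4 and 5 were below every control lamb and 3 of 8 shunt lambs were above the control mean. The difference was -0.07 ± 0.07 (adjusted p = 0.680 by limma, exact permutation p = 0.361), with an interval of -0.23 to 0.08.

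NOX4, the form of vascular wall cells, was dim on these arrays. Its brighter probe set was at percentile 17.9 of all probe sets by mean level and the dimmer at 16.7. The brighter one read 5.13 to 5.67 in control (median 5.31) and 5.06 to 5.74 in shunt (median 5.31), a difference of -0.01 ± 0.09 (adjusted p = 0.960 by limma) with an interval of -0.21 to 0.18. The dimmer one read 5.13 to 5.45 in control and 5.12 to 5.45 in shunt, a difference of -0.04 ± 0.06 (adjusted p = 0.761 by limma). At such levels these small differences do not show that NOX4 RNA was the same in both groups.

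XDH, the xanthine oxidase gene, was dim as well, at percentiles 21.1 and 11.7. The brighter probe set read 5.41 to 5.80 in control (median 5.54) and 5.35 to 5.91 in shunt (median 5.54), a difference of -0.02 ± 0.08 (adjusted p = 0.921 by limma) with an interval of -0.19 to 0.15. The dimmer one, of a type whose probes can match more than 1 transcript, read 4.62 to 5.29 in control and 4.64 to 5.35 in shunt, a difference of 0.07 ± 0.10 (adjusted p = 0.763 by limma). Shunt replicate 7 was the highest shunt lamb with both probe sets and control replicate 2 the highest control lamb with both.

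RAC1, which also drives the actin cytoskeleton and serves the oxidases of non-phagocytic cells, was bright and almost constant. Its brighter probe set read 12.16 to 12.36 in control (median 12.27) and 12.20 to 12.31 in shunt (median 12.23), a difference of -0.03 ± 0.04 (adjusted p = 0.806 by limma) with an interval of -0.12 to 0.06. The other read 11.27 to 11.41 in control and 11.31 to 11.48 in shunt, with 7 of 8 shunt lambs above the control mean, and a difference of 0.04 ± 0.04 (adjusted p = 0.682 by limma, exact permutation p = 0.156) with an interval of -0.05 to 0.13. The probe sets differed in sign, and both intervals held 0.

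**Figure D2:**
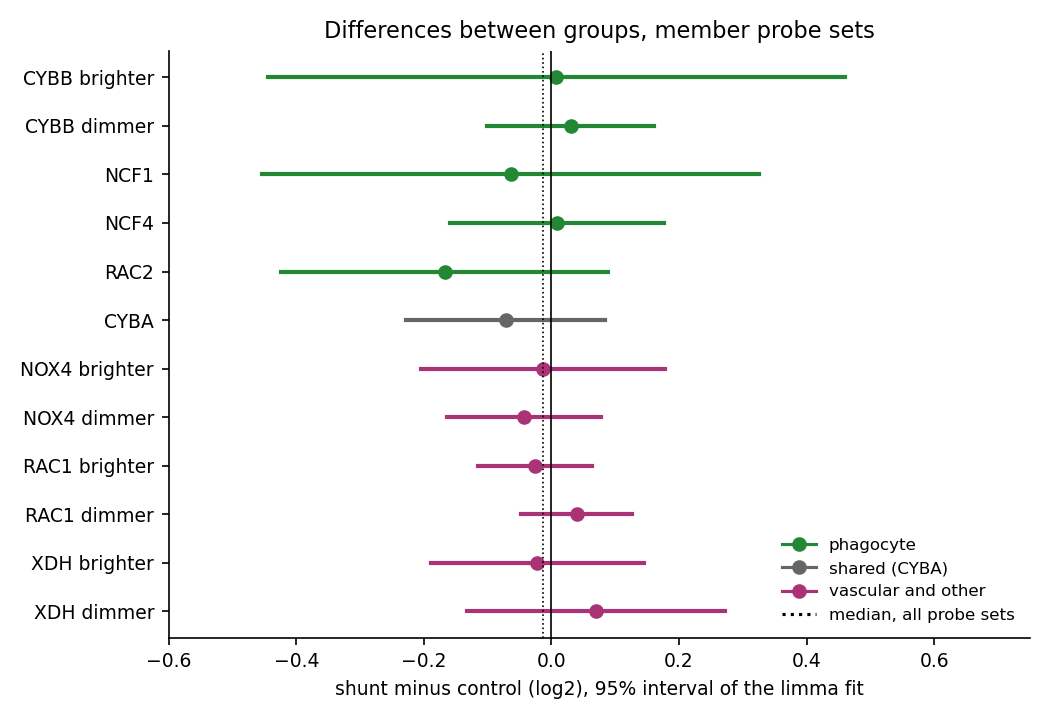
Shunt minus control difference of each member probe set on the log2 scale (points) with its 95% interval from the limma fit (lines), for phagocyte genes (green), CYBA (grey) and the vascular and other genes (purple). The dotted line is the median of all probe sets, -0.01. All 12 intervals hold 0, and they are widest for CYBB (brighter) and NCF1 and narrowest for the probe sets of RAC1.

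The phagocyte genes CYBB, NCF1, NCF4 and RAC2 had a median difference of -0.03, with 2 of 4 above 0. With 1 lamb left out, that median was 0.03 when control replicate 7 or shunt replicate 3 was missing, 0.02 when shunt replicate 4 was, and -0.10 when shunt replicate 8 was. The genes classed here as vascular, NOX4, XDH and the widely expressed RAC1, had a median of -0.02, with 0 of 3 above 0. Both medians were close to that of all 9155 genes, -0.01, of which 44.9% were above 0. After quantile normalization again, after centring each array on its median and after cyclic loess, the vascular median was between 0.0012 and 0.0058, with 2 of 3 above 0, so the sign of neither median is settled. How far lambs of 1 group lay from each other differed widely among the members but did not divide the classes, which is given as a description with no test. The SD within groups was 0.49 for the brighter CYBB probe set (percentile 99.0 of all probe sets), 0.42 for NCF1 (98.3) and 0.27 for RAC2 (91.5), but 0.17 for NCF4 (63.5) and 0.12 for the dimmer CYBB probe set (30.6). It was 0.19 for NOX4 (76.5), 0.17 for XDH (63.1) and 0.06 for RAC1 (percentile 0.625), each with the brighter probe set, and 0.21 (80.6) for the dimmer XDH probe set. CYBA was at 0.15 (54.5).

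The members were next compared from lamb to lamb, with the group means removed. In all, 64 relations over 16 lambs were computed: 28 pairs of member genes, 32 of a member gene with a mean of cell type markers, and 4 of both probe sets of a gene. Permutation tests were two-sided with Benjamini-Hochberg adjustment over the 64. By Pearson's r 3 passed, by Spearman's rho 0 did, and 18 had an unadjusted permutation p under 0.05 for r. RAC2 and CYBA followed the mean of 10 macrophage markers most closely. For RAC2, r was 0.79 (permutation p = 0.00048, adjusted p = 0.0272) and rho 0.78 (permutation p = 0.00085, adjusted p = 0.0544). Within control lambs r was 0.82 (exact permutation p = 0.0233) and within shunt lambs 0.84 (exact permutation p = 0.0101). Without the 2 lambs farthest from the RAC2 median r was 0.69.

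For CYBA with the macrophage marker mean, r was 0.77 (permutation p = 0.00172, adjusted p = 0.0367) and rho 0.76 (permutation p = 0.00177, adjusted p = 0.0566), with 0.74 in control and 0.80 in shunt lambs and 0.68 without the 2 farthest. Control replicate 2 had by far the lowest macrophage marker mean and the lowest RAC2. Without it, r was 0.66 for RAC2 (adjusted permutation p = 0.0653) and 0.71 for CYBA (adjusted permutation p = 0.0963), and 0 of 64 relations passed. NCF1 went with the same mean at r of 0.62 (permutation p = 0.0186, adjusted p = 0.119; rho 0.69), and at 0.67 without the 2 lambs farthest in NCF1. CYBB did not follow it as closely, at r of 0.32 (permutation p = 0.245, adjusted p = 0.475; rho 0.48), nor did NCF4, at 0.04 (permutation p = 0.894, adjusted p = 0.990; rho 0.31). For NCF4 r was 0.54 and rho 0.60 without control replicate 2, with r of -0.65 in control (exact permutation p = 0.0723) and 0.74 in shunt lambs (exact permutation p = 0.0365), a difference between groups that was not tested. With the mean of 8 neutrophil markers, r was 0.64 for CYBA (permutation p = 0.0118, adjusted p = 0.0944; rho 0.50; 0.52 without the 2 farthest lambs) and 0.59 for NCF1 (permutation p = 0.0249, adjusted p = 0.122; rho 0.52; 0.42 without the 2 farthest). It was 0.35 for RAC2 (permutation p = 0.189, adjusted p = 0.415; rho -0.0088), 0.17 for NCF4 and -0.02 for CYBB.

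Among the member pairs the closest were RAC2 with CYBA (r of 0.70, permutation p = 0.00582, adjusted p = 0.0745; rho 0.54) and RAC2 with NCF1 (r of 0.69, permutation p = 0.00411, adjusted p = 0.0658; rho 0.62). Without the 2 lambs farthest in RAC2, r fell to 0.34 for RAC2 with CYBA and to 0.56 for RAC2 with NCF1. For RAC2 with CYBA r was 0.74 within control lambs (exact permutation p = 0.0452) and 0.67 within shunt lambs (exact permutation p = 0.0642). NCF1 with CYBA had r of 0.62 (adjusted permutation p = 0.119), and 0.60 without the 2 lambs farthest in NCF1. RAC2 with RAC1 also had r of 0.62 (adjusted permutation p = 0.122), and 0.34 without the 2 lambs farthest in RAC2. Without control replicate 2 the order changed: r was 0.66 for RAC2 with NCF1 and 0.65 for NCF4 with CYBA (0.30 with that lamb). It was then 0.62 for NCF1 with NCF4 (0.38 with that lamb), 0.61 for NOX4 with RAC1 and 0.60 for RAC2 with CYBA. CYBB and CYBA, whose proteins form 1 complex, had r of 0.03. The most negative pair was NCF4 with RAC1, with r of -0.58 (permutation p = 0.023, adjusted p = 0.122) and rho of -0.59. Next was NOX4 with XDH, with r of -0.53 (permutation p = 0.0441, adjusted p = 0.157) and rho of -0.67. Without the 2 farthest lambs r was -0.43 and -0.49 for these pairs. NOX4 went with RAC1 (r of 0.62, permutation p = 0.00977, adjusted p = 0.0918; rho 0.60; 0.41 without the 2 farthest) and with the smooth muscle marker mean (r of 0.54, permutation p = 0.0356, adjusted p = 0.134; rho 0.48; 0.39 without the 2 farthest). The latter was 0.86 in control lambs (exact permutation p = 0.00536) and 0.14 in shunt lambs (exact permutation p = 0.752), and the difference between the groups was not tested. With the same marker mean r was 0.67 for RAC1 (permutation p = 0.0100, adjusted p = 0.0918). It was -0.56 for XDH (permutation p = 0.0271, adjusted p = 0.122) and -0.55 for NCF4 (permutation p = 0.0339, adjusted p = 0.134). Without the 2 lambs farthest in each gene these were 0.43, -0.30 and -0.33. NOX4 was read here with its brighter probe set alone.

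**Figure D3:**
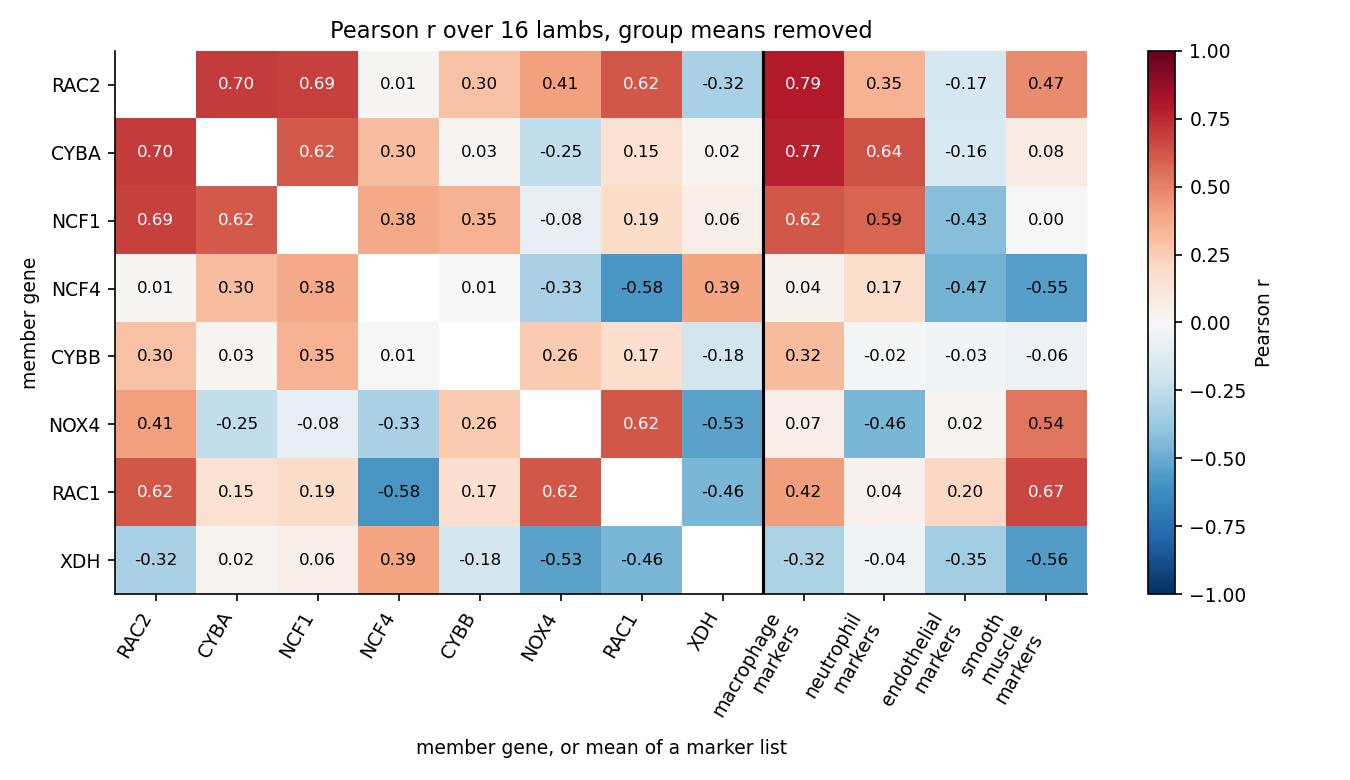
Pearson correlation over 16 lambs, with group means removed, between member genes (rows) and member genes or means of marker lists (columns right of the black line), with the brightest probe set for each gene. Red is positive and blue negative, and the deepest red is at RAC2 (0.79) and CYBA (0.77) with the macrophage markers.

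The 2 probe sets of a gene did not always follow each other. Both XDH probe sets did, with r of 0.78 (permutation p = 0.00085, adjusted p = 0.0272; rho 0.59), falling to 0.48 without the 2 farthest lambs. Those of CYBB had r of -0.06 (permutation p = 0.834, adjusted p = 0.990; rho 0.15), those of RAC1 0.25 (permutation p = 0.372, adjusted p = 0.612; rho 0.21), and those of NOX4 -0.57 (permutation p = 0.0287, adjusted p = 0.122; rho -0.66). For NOX4 and CYBB the spread between lambs therefore depends on the probe set read.

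By the same measure, the genes most like each member over the 16 lambs were taken, as a description. RAC2 was closest to CD53 (r of 0.90), NCKAP1L (0.89) and CORO1A (0.87), all genes of leukocytes. CYBA was closest to RGS19 (0.88), MS4A8 (0.86) and TCIRG1 (0.86), a proton pump subunit. NCF1 was closest to FKBP11 (0.86), NT5C3B (0.82) and the clotting factor gene F5 (0.82), and NCF4 to GDNF (0.89), HRG (0.85) and AKT1S1 (0.84). CYBB had no gene as close, its first being BCKDHB (0.78), TRIM5 (0.77) and PLAT (0.76), tissue plasminogen activator. RAC1 was closest to the cytoskeletal genes TUBB (0.94) and MYL6 (0.88) and to TADA2A (0.88). NOX4 was closest to BOLA-DQB (0.84), G2E3 (0.81) and GUF1 (0.80), and XDH to IKZF3 (0.87), ALOX15 (0.80) and SLC13A4 (0.77). None of these 24 genes passed the test of shunt against control by limma, the smallest adjusted p being 0.459.

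The other genes of the pathway gave no call either. Of 12 further oxidase subunits 3 had a named probe set, and 0 of 3 passed: RAC3 at -0.13 ± 0.09 (adjusted p = 0.486 by limma), the chaperone of the CYBB core CYBC1 at -0.07 ± 0.07 (adjusted p = 0.642) and the NOX1 activator NOXA1 at -0.08 ± 0.13 (adjusted p = 0.803). NOX1, NOX3, NOX5 and the genes of the DUOX enzymes were not analysed here. Among 13 measured oxidase regulators 0 passed, 6 were above 0 and the median was -0.0050. Of all genes, 6.63% had a positive and 7.92% a negative difference with an unadjusted p below 0.05 by limma. Among the regulators, 1 with a positive (7.69%) and 3 with a negative difference (23.1%) had such a p. These were POLDIP2, a p22phox-binding activator of NOX4, at -0.16 ± 0.04 (adjusted p = 0.167 by limma), the leukocyte RAC inhibitor ARHGDIB at 0.21 ± 0.09 (adjusted p = 0.269), the RAC effector PAK1 at -0.16 ± 0.07 (adjusted p = 0.322) and the protein kinase C gene PRKCA at -0.15 ± 0.07 (adjusted p = 0.324). Other probe sets read -0.10 for POLDIP2, -0.12 and -0.02 for PAK1 and -0.04 for PRKCA.

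Of 8 measured genes around xanthine oxidase, 0 passed, 4 were above 0 and the median was -0.03. HPRT1, which salvages the substrate hypoxanthine, was at -0.13 ± 0.07, MOCOS, which completes the molybdenum cofactor of XDH, at -0.17 ± 0.09, ADA at -0.10 ± 0.06 and the related oxidase AOX1 at -0.14 ± 0.10, with adjusted p from 0.401 to 0.498 by limma. Of 16 genes that remove superoxide and peroxide, 0 passed and 5 were above 0 (3 to 8 under 5 other settings), with a median of -0.02 and a mean of 0.01. An unadjusted p below 0.05 was found for 1 gene above 0 (6.25%) and 2 below 0 (12.5%), against 6.63% and 7.92% of all genes. The peroxiredoxin gene PRDX6 was at -0.33 ± 0.09 (adjusted p = 0.172 by limma), with other probe sets at -0.14, -0.21 and 0.43, the plasma glutathione peroxidase GPX3 at 0.79 ± 0.22 (adjusted p = 0.177), PRDX5 at -0.22 ± 0.07 (adjusted p = 0.207) and SOD1 at -0.14 ± 0.07 (adjusted p = 0.359).

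**Figure D4:**
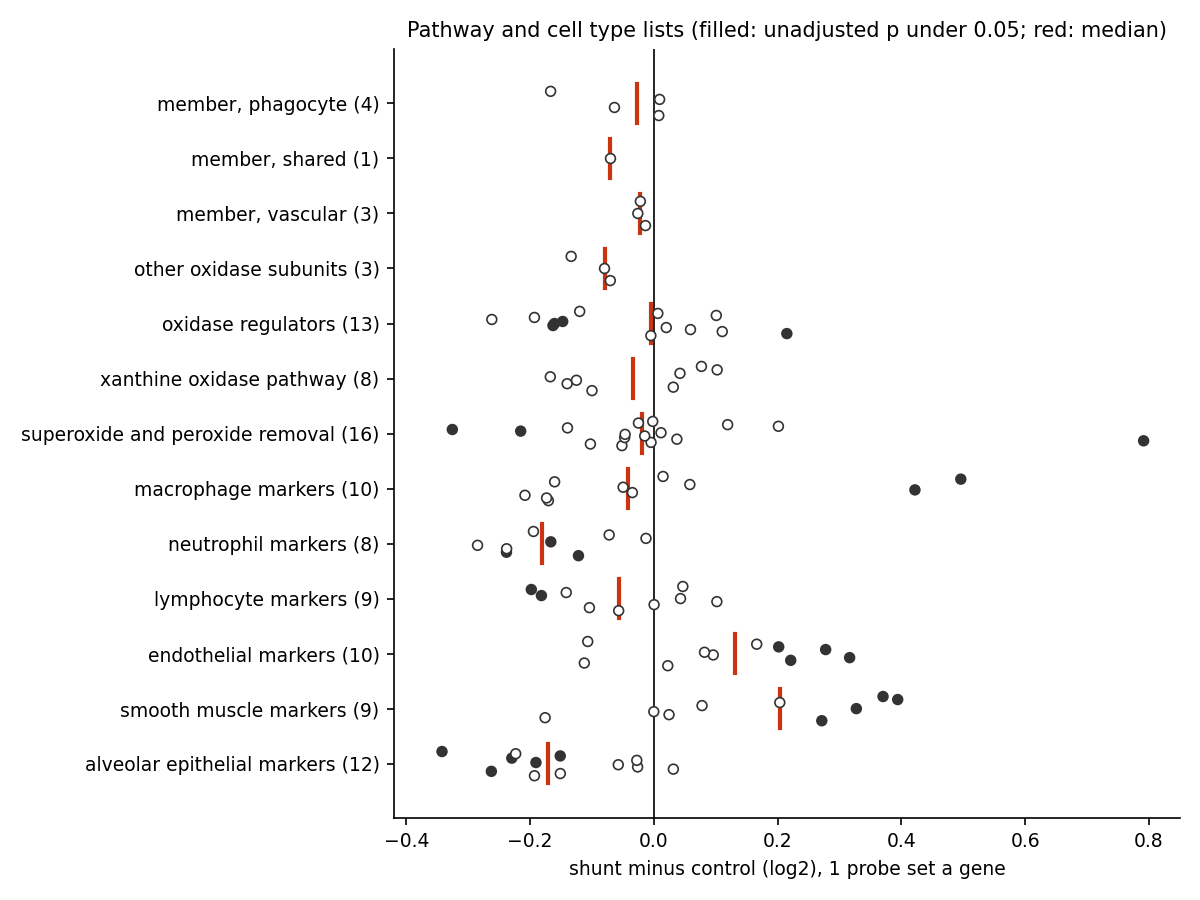
Shunt minus control difference on the log2 scale of every measured gene (points, 1 probe set a gene) in the member classes and in the pathway and cell type lists, with the number of genes in brackets. Filled points have an unadjusted p under 0.05 and red lines are list medians. No member is filled, and the member medians lie between -0.07 and -0.02, while smooth muscle and endothelial markers have medians of 0.20 and 0.13 and neutrophil and alveolar epithelial markers -0.18 and -0.17.

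Markers of the cells that carry these oxidases were read beside them. In a bulk sample fewer cells of a type and less RNA per cell cannot be told apart. Of 10 macrophage markers 0 passed by limma and 4 were above 0, with a median of -0.04 and a mean of 0.02. An unadjusted p below 0.05 was found for 2 genes, both above 0. Over all genes, for this and the following lists, that share was 6.63% higher and 7.92% lower in shunt. Without control replicate 2 the macrophage median was -0.12, with 2 of 10 above 0. An unadjusted p below 0.05 was then found for 2 genes above and 3 below 0. With array weights the macrophage median was -0.13 with the same counts. The level of the list, centred over the 16 lambs, ran from -0.48 to 0.20 in control and from -0.27 to 0.36 in shunt lambs. The scavenger receptor MSR1 was at 0.50 ± 0.15 (adjusted p = 0.200; other probe sets at -0.14 and 0.11), CD14 at 0.42 ± 0.15 (adjusted p = 0.245; another at 0.18), C1QB at -0.21 ± 0.13 and AIF1 at -0.17 ± 0.11. Of 8 neutrophil markers 0 passed and 0 were above 0 (0 or 1 under other scalings), with a median of -0.18 and an unadjusted p below 0.05 for 3 (1 or 2 under 5 other settings). Their centred level ran from -0.12 to 0.39 in control and from -0.25 to 0.19 in shunt. The gelatinase gene MMP9 was at -0.29 ± 0.17, the elastase gene ELANE at -0.24 ± 0.10, the myeloperoxidase gene MPO at -0.17 ± 0.07 and CAMP at -0.12 ± 0.06, with adjusted p from 0.273 to 0.438 by limma, and CAMP was at percentile 1.18 of the genes by level. Other probe sets of these markers read -0.05 for MPO, -0.13 for S100A9 and 0.09 for LTF, so the count above 0 holds for the brightest probe sets. Of the phagocyte members, which neutrophils also carry, RAC2 and NCF1 had negative and CYBB and NCF4 slightly positive differences beside this list. Of 9 smooth muscle markers 0 passed, 4 had an unadjusted p below 0.05 with a positive difference (3 to 6 under 5 other settings), 7 were above 0 and the median was 0.20 (0.13 without control replicate 2), against a NOX4 difference of -0.01. Of 10 endothelial markers 0 passed (1 with arrays centred on their medians), 4 had an unadjusted p below 0.05 (3 or 4 under the other settings), 8 were above 0 and the median was 0.13. A dimmer probe set of the endothelial gene PECAM1 did pass among all probe sets, at 0.35 (adjusted p = 0.0384 by limma). Among 12 alveolar epithelial markers 0 passed, 5 had an unadjusted p below 0.05 (3 to 6) and 1 was above 0, with a median of -0.17. The lung label is borne out by SFTPC, the surfactant gene of type 2 cells, at percentile 99.4 of the genes by level, and by AGER of type 1 cells at 93.5.

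Over the arrays as a whole, the mean correlation of an array with the other 15 was 0.983 for control replicate 2 and 0.990 to 0.993 for the rest. Array medians were 7.16 ± 0.02 (SD, n = 8) in control and 7.14 ± 0.01 in shunt lambs (exact permutation p = 0.000777), a difference of -0.02 that is as large as the differences of several members. With arrays centred on their medians, 0 of 12 member probe sets passed. Probe sets of the spiked poly-A controls averaged 4.39 ± 0.08 in control and 4.31 ± 0.02 in shunt arrays (exact permutation p = 0.00109). These levels were close to that of CAMP (4.42 in control and 4.29 in shunt), which was at percentile 1.18 of the genes. Whether they hold any spike signal is therefore unknown. Control replicate 2 read highest, at 4.58. The part of these readings in the member differences was not tested. The gap between 3' and 5' probe sets of housekeeping genes, which widens as RNA decays, averaged 1.30 ± 0.19 for control and 1.31 ± 0.11 for shunt lambs (exact permutation p = 0.892). No scan or hybridisation date was used here, so batches were not tested.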

How the data were processed

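The values used are the log2 signals of each array as the authors deposited them. RMA (version not given in the sources used here) is the tool that the submitters' processing notes name. RMA subtracts background, normalizes arrays by quantiles and summarizes probes. The 112 manufacturer control probe sets were left out, which left 24016. Of these, 13292 had 1 gene symbol in the platform annotation. For values by gene, each gene was read from its brightest probe set (mean of the 16 arrays). A sheep gene table held the symbols of 7 of 8 members, all but CYBA. No positions were taken from it, since the probes are bovine.

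Groups were compared over all probe sets, and over all genes, with limma 3.58.1 in R 4.3.3 (no covariate, Benjamini-Hochberg over the whole table, threshold 0.05). Exact tests used all 12870 divisions of the lambs and correlations 100000 resamples within groups. Fits were tested on simulated data. The members and lists were chosen with earlier results of these data known. Named were all member probe sets, up to 4 genes of smallest p in each other list and the 3 genes most correlated with each member. Marker lists covered macrophages, neutrophils, lymphocytes, endothelium, smooth muscle, fibroblasts, alveolar epithelium and red cells. Alternatives were the replicate number as a block, a filter on dim probe sets, 3 other normalizations, array weights, another prior, XIST and the 3' minus 5' difference as covariates, other rules for a gene's probe set, a threshold of 0.10 and each array left out. Lists under other scalings, and correlations and lists without control replicate 2, were added once the data had been seen. Figures were made in matplotlib 3.10.9.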

Additional observations from a re-analysis of the deposited data

Results flagged for a closer look

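A lamb far from the other 7 of a group, judged by its distance from the nearest of them relative to their whole range, was found in 2 of 48 sets of values (12 member probe sets and 12 lists in both groups), where chance gives about 1 in 20, or 2.4. Both were control replicate 2. Its XDH level with the dimmer probe set was 5.29, against 4.62 to 4.88 in the other controls (ratio of gap to range 0.612). Without this lamb the XDH difference with that probe set was 0.13 (adjusted p = 0.552 by limma). Its mean of the macrophage markers was -0.48, against -0.05 to 0.20 (ratio 0.627), and this is the lamb without which no correlation of RAC2 or CYBA with the macrophage markers passed.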

How the results depend on the processing

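No member probe set and no member gene passed under any of the alternatives run, with 1 lamb left out or otherwise, and the smallest adjusted p was 0.397 (RAC2 without control replicate 2). Small differences changed sign in 8 of 116 values under other settings. The replicate block, the filter on dim probe sets, the other prior and the threshold of 0.10 leave each difference as it was. Their values among the 116 therefore could not change sign, and all 8 changes came with another normalization or array weights. After quantile normalization again, the brighter NOX4 probe set was at 0.0054, the second RAC1 probe set at -0.0083 and the brighter XDH probe set at 0.0044. With arrays centred on their medians NOX4 was at 0.0094 and XDH at 0.0012, with cyclic loess 0.0103 and 0.0058, and with array weights NOX4 was at 0.0148. With 1 lamb left out signs changed in 25 of 192 values, the difference running from -0.11 to 0.13 for the brighter and -0.0036 to 0.0600 for the dimmer CYBB probe set, -0.139 to 0.0590 for NCF1, -0.0229 to 0.0490 for NCF4, -0.0712 to 0.0319 for the brighter NOX4 and -0.0722 to 0.0104 for the brighter XDH probe set. The cause was not tested. The phagocyte median ran from -0.10 to 0.03 and the vascular from -0.04 to -0.01 with 1 lamb left out. Of the 64 correlations, 3 passed, 7 with group means kept in the values, and 0 without control replicate 2. With the replicate number as a block 0 member probe sets and 0 member genes passed, and 0 of all probe sets against 17 without the block. Deviations of same-numbered lambs had correlations from -0.27 to 0.19, 2 of 8 above 0.1, and 1 of 16 lambs correlated best with its own number, so the numbers were not taken as pairs. The number of arrays limits precision, and for NOX4 and XDH the unknown signal over background does.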

Other observations

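Lists of other cells in the sample were read in the same fit by limma. Of 6 red cell genes 0 passed and 4 were above 0, with a median of 0.09. The globin gene HBB was at 0.68 ± 0.36 (adjusted p = 0.385), but its other probe sets were at 0.10, -0.31 and -0.06. Among 8 fibroblast markers 0 passed and 5 were above 0, with a median of 0.01. The proteoglycan genes LUM, at 0.60 ± 0.24 (adjusted p = 0.275), and DCN, at -0.29 ± 0.22 (adjusted p = 0.560), had opposite signs. Of 9 lymphocyte markers 0 passed and 4 were above 0, with a median of -0.06. The T cell kinase LCK was at -0.20 ± 0.07 (adjusted p = 0.245), with other probe sets at -0.14 and -0.16, and the B cell receptor gene CD79A at -0.18 ± 0.07 (adjusted p = 0.264).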
